A study of Homo sapiens with 6 samples.

Results

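The genes described here were the cytosolic heat shock proteins and HSF1, the transcription factor that drives their induction. They were 10 genes chosen by name and by their known roles. Earlier results of these data were known when they were chosen. All 10 were among the 17177 genes of the table. HSF1 was the factor. HSP90AA1 and HSP90AB1 encode the cytosolic HSP90 proteins, HSPA8, HSPA1A and HSPA1B the cytosolic HSP70 proteins, HSPH1 an HSP110 protein, DNAJB1 a J protein, BAG3 a cochaperone and HSPB1 a small heat shock protein. RNA-seq was performed on NCI-H660 cells, an established human neuroendocrine prostate cancer cell line labelled as wild type, at day 3 of treatment with PP (pyrvinium pamoate, an anthelmintic drug) or PBS (phosphate-buffered saline). Each treatment had 3 libraries, and the comparison asks which genes differ between treated and control cells. The labels number the libraries of a treatment but do not say that they came from separate cultures. The study's figure legends describe 3 independent samples for this experiment, without saying what made them independent. The P values below therefore measure the spread between these libraries, which may be technical. The dose given to these cells was not found in the sources used here.

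In unstressed cells, HSF1 is held inactive by chaperones, among them HSP70 and HSP90. When misfolded proteins occupy the chaperones, HSF1 forms trimers, binds heat shock elements in promoters and raises the transcription of chaperone genes. HSP70 proteins bind exposed hydrophobic stretches in an ATP-driven cycle in which J proteins deliver the substrate and nucleotide exchange factors release it, and HSP90 proteins, with their cochaperones, complete the maturation of kinases and steroid receptors.

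The recovered counts ran from 29064253 to 32481171 per library, so the deepest library was 11.8% above the shallowest. Expression was given as FPKM, a fragment count scaled to the depth of the library and to the length of the gene, so it is a level per length. Of 7 neuroendocrine markers, 1 was higher with PP (14.3%, against 38.1% of all genes tested) and 5 were lower (71.4%, against 34.4%). CHGA, the chromogranin A of secretory granules, fell from 43.3 to 24.8 FPKM. Of 4 fibroblast and 3 leukocyte markers, COL1A1 (3.30 with PBS and 4.16 with PP) and CD68 (1.41 and 1.09) passed the expression filter, and the leukocyte-defining PTPRC had 0 to 4 counts. The part of the marker changes in the results below was not tested.

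Of the 4 most abundant of these genes, HSP90AB1, HSP90AA1 and HSPA8 fell and HSPB1 rose slightly, and HSF1 itself rose. Of the 10 genes, 4 were higher with PP at an adjusted p threshold of 0.05 (HSF1, BAG3, HSPA1A and HSPB1), 4 were lower (HSPA8, HSP90AA1, HSP90AB1 and HSPA1B) and 2 did not pass (HSPH1 and DNAJB1). Over all 11726 genes tested, 38.1% were higher and 34.4% were lower, so the shares among these 10 were near the background. The 3 PP libraries lay entirely above or below the 3 PBS libraries in 9 of the 10 genes (4 above and 5 below), against 75% of all genes. The study's methods give a P threshold of 0.05 for RNA-seq. For limma they ask for a P under 0.001 together with a change beyond 1 on the log2 scale in either direction. Of all genes tested, 5.18% met this stricter cutoff. None of the 10 genes did in the limma fit (0 of 10). The median log2 fold change of the 10 genes was -0.05 and that of all genes tested was 0.02. In these bulk libraries, fewer cells of a kind and less RNA per cell cannot be told apart.

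Levels in PBS fell into an abundant and a less abundant set. HSPB1 had a mean of 984 ± 7.62 FPKM (SD, n = 3) and stood at rank 12 of all genes, HSP90AB1 at rank 15, HSP90AA1 at rank 16 and HSPA8 at rank 18. HSF1 followed at 93.9 ± 4.09 FPKM, then HSPA1B, DNAJB1, HSPH1, HSPA1A and BAG3, the last at 19.1 ± 0.519 FPKM and rank 3704. Between neighbours in this order, the 3 PBS libraries overlapped only for HSP90AB1 and HSP90AA1. Together, the 9 genes other than HSF1 summed to 3999 ± 69.2 FPKM with PBS and 3315 ± 60.3 FPKM with PP, which is from 1.24% to 1.28% of all FPKM with PBS and from 1.05% to 1.09% with PP. This sum fell by 17.1%, with an exact permutation p of 0.1 (two-sided), the smallest that 3 against 3 libraries can give.

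**Figure D1:**
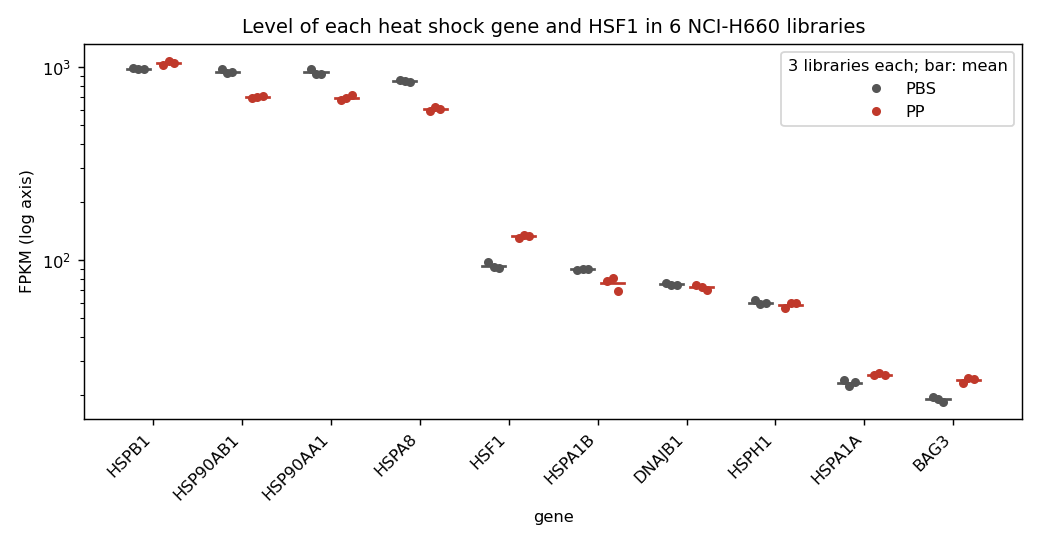
FPKM (log axis) of the 10 genes in each library, ordered by the PBS mean, with grey points for PBS and red points for PP, 3 libraries each, and a bar at each group mean. The 3 PP libraries of HSP90AA1, HSP90AB1 and HSPA8 sat below all PBS libraries, those of HSF1 and BAG3 sat above, and those of HSPH1 overlapped with PBS.

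HSF1 was higher in all PP libraries. It measured 98.6, 92.2 and 91.0 FPKM in PBS libraries 1 to 3 and 129.9, 136 and 133 FPKM in PP libraries 1 to 3. The groups were separated by more than the range within either. Its log2 fold change was 0.50 (SE 0.04, 95% confidence interval 0.41 to 0.58, adjusted p = 1.2e-06 by limma), an increase of 41.5%, and 88.6% of genes tested had a lower log2 fold change. This was the largest change in size among the 10 genes, close to that of HSPA8 at -0.48. Under the alternatives HSF1 ranged from 0.47 to 0.53 and HSPA8 from -0.51 to -0.47, so their order in size is not settled. Exons of other genes on the opposite strand covered 5.05% of the exonic bases of HSF1, and whether the counting used strand is not given in the sources used here. The 3 genes whose values over the 6 libraries lay closest to those of HSF1, each taken relative to its PBS mean on the log2 scale, were EIF3J (Euclidean distance 0.0525), EEA1 (0.0529) and VAPA (0.0545).

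Among the relatives and binding proteins of HSF1, 4 of 6 genes were tested, 1 was higher, 2 were lower and the median log2 fold change was -0.16. Those shares, 25% higher and 50% lower, compare with 38.1% and 34.4% of all genes tested. HSF2, the paralog that forms mixed trimers with HSF1, rose from 19.0 ± 1.60 to 25.8 ± 1.41 FPKM (log2 fold change 0.42, adjusted p = 0.000136 by limma). HSBP1, a small coiled-coil protein that binds HSF1 trimers and counters their activity, fell from 11.2 ± 0.153 to 6.10 ± 0.194 FPKM (log2 fold change -0.79, adjusted p = 1.98e-07 by limma). HSF4, the factor of the lens, was at 8.67 and 7.36 FPKM (log2 fold change -0.22, adjusted p = 0.0386 by limma). The HSF4 call was lost without PBS library 1 or 3 or PP library 1, with log2 fold changes of -0.21, -0.19 and -0.11, and also with no expression filter (adjusted p = 0.104 by limma) or no intensity trend (adjusted p = 0.0501 by limma).

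The cytosolic HSP90 genes fell together. HSP90AA1, the gene of the stress-inducible form, measured 980.1, 927 and 928 FPKM with PBS and 677, 691 and 717 FPKM with PP. HSP90AB1, the gene of the constitutive form, measured 974, 931 and 946 FPKM with PBS and 694, 702 and 710.5 FPKM with PP. In both genes every PP library was below every PBS library. The log2 fold change was -0.44 for HSP90AA1 (SE 0.03, 95% confidence interval -0.52 to -0.37, adjusted p = 1.2e-06 by limma) and -0.44 for HSP90AB1 (SE 0.03, 95% confidence interval -0.50 to -0.37, adjusted p = 3.73e-07 by limma). Their levels fell by 26.4% and 26.1%.

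The cochaperones of HSP90 did not move as one group: 21 of 23 were tested, 6 were higher, 8 were lower and the median log2 fold change was -0.04. Those shares, 28.6% higher and 38.1% lower, compare with 38.1% and 34.4% of all genes tested. STIP1, which links HSP70 to HSP90, fell from 183 ± 2.61 to 142 ± 6.97 FPKM (log2 fold change -0.36). AHSA1, the activator of the HSP90 ATPase, had a log2 fold change of -0.20 and CDC37, the kinase adaptor, one of -0.21, both past the threshold. The largest falls were in UNC45A, a chaperone of myosin, at -0.46, and FKBP8, an immunophilin, at -0.40. The largest increases were in CDC37L1, a relative of CDC37, at 0.44, and FKBP4, an immunophilin of steroid receptor complexes, at 0.29. STIP1, AHSA1 and CDC37 were named for their roles after their values had been seen.

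HSPA8, the constitutive cytosolic HSP70 gene, showed the largest fall of the 10 genes. It measured 862, 852 and 844 FPKM with PBS and 596, 623 and 609 FPKM with PP, from 41784 to 60959 counts per library. The groups did not overlap, and the gap was wider than either range. The log2 fold change was -0.48 (SE 0.03, 95% confidence interval -0.55 to -0.42, adjusted p = 1.76e-07 by limma), and the level fell by 28.5%. HSP90AA1, HSP90AB1 and HSPA8 together went from 2747 ± 59.1 to 2007 ± 36.0 FPKM, so their sum fell by 27.0%. These 3 had the largest falls of the 10 genes, so the fall of their sum follows from the choice. With HSPB1 added, the sum of the 4 most abundant genes fell by 18.0%. Opposite-strand exons covered 11.4% of the exonic bases of HSPA8, and small nucleolar RNA genes lie within its gene body.

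For each of these 3 genes and for HSPA6, described next, the promoter window that holds an exact heat shock element, the binding site of HSF1, is shown. HSP90AA1 and HSP90AB1 also have windows at other annotated starts, which held no match even with 1 mismatch allowed. Sequences were from RefSeq on GRCh38.p14, from 250 bases before to 50 bases from the annotated start, read 5′ to 3′ on the strand of the gene. The motif searched was GAANNTTCNNGAA on both strands, where matches may overlap, and the capitals mark exact matches. The windows lie at chr11:123062087-123062386 (minus strand, HSPA8), chr14:102086995-102087294 (minus strand, HSP90AA1), chr6:44247693-44247992 (plus strand, HSP90AB1) and chr1:161524290-161524589 (plus strand, HSPA6).
HSPA8: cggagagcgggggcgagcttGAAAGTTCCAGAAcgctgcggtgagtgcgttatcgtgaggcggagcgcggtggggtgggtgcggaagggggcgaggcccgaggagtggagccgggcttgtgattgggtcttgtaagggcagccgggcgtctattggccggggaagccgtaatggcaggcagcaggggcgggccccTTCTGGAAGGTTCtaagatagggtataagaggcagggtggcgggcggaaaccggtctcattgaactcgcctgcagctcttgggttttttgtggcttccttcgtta
HSP90AA1: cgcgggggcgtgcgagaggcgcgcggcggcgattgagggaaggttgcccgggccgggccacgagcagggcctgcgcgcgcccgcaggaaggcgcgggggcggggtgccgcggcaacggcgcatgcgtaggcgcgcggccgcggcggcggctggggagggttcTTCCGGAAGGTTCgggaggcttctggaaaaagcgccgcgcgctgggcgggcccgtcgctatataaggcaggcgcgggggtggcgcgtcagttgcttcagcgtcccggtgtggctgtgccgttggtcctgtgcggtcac
HSP90AB1: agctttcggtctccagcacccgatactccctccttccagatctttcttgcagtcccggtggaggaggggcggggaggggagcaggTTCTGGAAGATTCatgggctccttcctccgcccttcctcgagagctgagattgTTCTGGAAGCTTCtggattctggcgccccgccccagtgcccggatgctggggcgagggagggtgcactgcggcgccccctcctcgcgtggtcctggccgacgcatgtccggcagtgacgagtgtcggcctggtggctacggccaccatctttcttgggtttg
HSPA6: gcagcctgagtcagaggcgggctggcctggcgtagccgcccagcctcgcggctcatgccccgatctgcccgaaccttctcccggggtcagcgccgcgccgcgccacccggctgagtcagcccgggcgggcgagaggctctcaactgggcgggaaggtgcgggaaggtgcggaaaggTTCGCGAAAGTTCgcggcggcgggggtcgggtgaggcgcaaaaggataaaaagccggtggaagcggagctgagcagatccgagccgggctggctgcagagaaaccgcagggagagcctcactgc

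With the annotated start as position 0, exact matches began at -230 and -55 in HSPA8, at -88 in HSP90AA1, at -165 and -112 in HSP90AB1 and at -74 in HSPA6. Such a match was found in 172 of 35116 promoter windows of the same length, or 0.490%. The table held 14 windows of 9 of the 10 genes, and 3 of those windows, in 3 genes, had an exact match. With 1 mismatch allowed, a match was found in 6.24% of all windows. By gene, at least 1 window of 7 of the 9 genes held one, including HSPA1A and HSPA1B, each at 1 place, and excluding HSPH1 and BAG3. Some of these genes have more than 1 window, so a share of genes is not a share of windows. The 3 genes with an exact match were also those with the largest falls, while HSPA6, with an exact match too, rose. This was noticed after both sets of values were seen and is given as a description. A match in a window is not a measured site of binding.

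HSPA1A and HSPA1B, the stress-inducible HSP70 genes on chromosome 6, went opposite ways in the table. HSPA1B measured 89.0, 90.1 and 90.6 FPKM with PBS and 78.4, 80.6 and 69.0 FPKM with PP. HSPA1A measured 24.1, 22.4 and 23.3 FPKM with PBS and 25.4, 26.0 and 25.4 FPKM with PP. The groups did not overlap in either gene, and in HSPA1B the third PP library was the lowest of the 6. The log2 fold change was -0.24 for HSPA1B (SE 0.05, 95% confidence interval -0.36 to -0.13, adjusted p = 0.0019 by limma) and 0.13 for HSPA1A (SE 0.04, 95% confidence interval 0.04 to 0.22, adjusted p = 0.0149 by limma). The HSPA1A call was lost without PBS library 2 (adjusted p = 0.0706 by limma) or PP library 2 (adjusted p = 0.0519 by limma).

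The 2 genes are near-identical copies, so the split between them is uncertain. Of the 150-base stretches of the HSPA1A transcript, a length equal to 1 read, 69.6% also occurred in HSPA1B, and the promoter windows were identical at 277 of 299 aligned bases. Exons of another annotated gene on the same strand also covered 920 of the 2517 exonic bases of HSPA1B. Summed, HSPA1A and HSPA1B went from 113 ± 0.715 to 102 ± 6.38 FPKM, with a log2 fold change of -0.16 (SE 0.04, 95% confidence interval -0.26 to -0.06, adjusted p = 0.009 by limma). The sum fell with HSPA1B, which makes up most of it, so it does not settle the direction of HSPA1A alone.

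**Figure D2:**
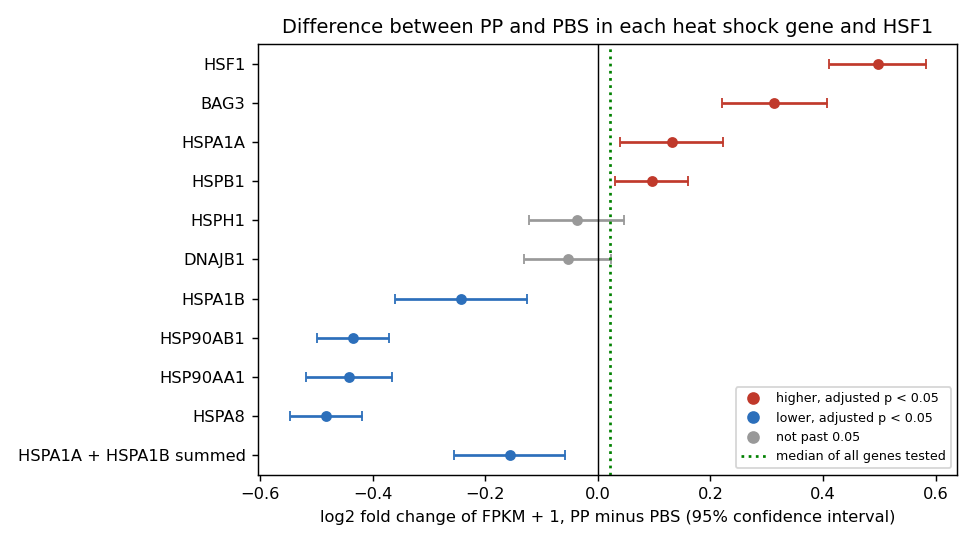
Log2 fold change of FPKM + 1 (PP minus PBS) with its 95% confidence interval from limma for the 10 genes and, in the last row, for HSPA1A and HSPA1B summed. Red points were higher, blue points lower and grey points not past an adjusted p of 0.05, and the dotted line marks the median of all genes tested, 0.02.

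Among the other cytosolic HSP70 and HSP110 genes, 5 of 8 were tested and 4 were higher (80%, against 38.1% of all genes tested). All 5 had positive log2 fold changes, with a median of 0.36. These figures include HSPA6, whose entry into the test depended on its PP libraries. HSPA6, the strictly stress-inducible HSP70 gene, measured 0.151, 0.232 and 0.0679 FPKM with PBS and 4.76, 5.52 and 3.84 FPKM with PP. It had from 5 to 16 counts per PBS library and from 296 to 393 per PP library, so the PBS level is known only roughly. With a PBS mean of 0.150 FPKM, HSPA6 passed the expression filter only through its PP libraries. A gene this low with PBS could enter the test only by being higher with PP, so its call is a description. The ratio of the mean FPKM was 31.3, and the log2 fold change was 2.30 with a pseudocount of 1 (adjusted p = 3.19e-08 by limma), 4.30 with a pseudocount of 0.1 and 5.05 by limma-voom on the recovered counts. Of its 150-base stretches, 15.3% also occurred in HSPA7. HSPA4L rose by a log2 fold change of 0.36 and HSPA1L, at 2.72 and 3.81 FPKM, by 0.36, while HSPA4 had 0.10. HSPA4 lost its call without PBS library 2 (0.09) or PP library 3 (0.08), with median-ratio size factors (0.07) and with no intensity trend (adjusted p = 0.0561 by limma). HSPA1L lost its call without PBS library 3 (0.32) or PP library 2 (0.22) and with no filter (adjusted p = 0.0654 by limma).

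Of the proteins that drive the HSP70 cycle, BAG3 rose and HSPH1 and DNAJB1 did not pass the threshold. BAG3, which couples HSP70 to small heat shock proteins and selective autophagy, measured 19.5, 19.2 and 18.5 FPKM with PBS and 23.2, 24.5 and 24.2 FPKM with PP. Each PP library was above each PBS library, and the log2 fold change was 0.31 (SE 0.04, 95% confidence interval 0.22 to 0.41, adjusted p = 6.79e-05 by limma), an increase of 25.6%. BAG3 had from 1444 to 2028 counts per library, the same range of depth as HSPA1A with 1577 to 1995. HSPH1, a nucleotide exchange factor of the HSP110 family, measured 62.2, 59.3 and 60.1 FPKM with PBS and 56.6, 60.2 and 59.9 FPKM with PP. These groups overlapped, and the log2 fold change of -0.04 had a 95% confidence interval of -0.12 to 0.05 (adjusted p = 0.39 by limma).

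DNAJB1, the J protein that delivers substrates to HSP70 and helps return HSF1 to its inactive state, measured 76.2, 75.0 and 74.6 FPKM with PBS and 74.4, 73.0 and 70.0 FPKM with PP. The groups did not overlap, but the highest PP library lay just under the lowest PBS library. The log2 fold change was -0.05 (95% confidence interval -0.13 to 0.02, adjusted p = 0.186 by limma). Opposite-strand exons covered 7.61% of its exonic bases.

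The other members of these families were mostly higher. The shares were 83.3% of the exchange factor and BAG genes and 73.7% of the J proteins tested, against 38.1% of all genes tested. Lower were 0% and 15.8%, against 34.4%. Of 6 other nucleotide exchange factors and BAG genes, all tested, 5 were higher, all had positive log2 fold changes and the median was 0.20, with BAG2, an inhibitor of the ubiquitin ligase CHIP, at 0.34 and HSPBP1 at 0.22. BAG5 had 0.15 and BAG4 had 0.20. BAG5 lost its call without PBS library 3 (0.13) or PP library 1 (0.12), and BAG4 without PBS library 1 (0.15) or 2 (0.16) or PP library 2 (0.16) or 3 (0.19), with no filter (adjusted p = 0.105 by limma) and with median-ratio size factors (0.18). Of 21 other cytosolic J proteins, 19 were tested, 14 were higher, 3 were lower and the median was 0.24. DNAJC6, the auxilin of clathrin uncoating, had 0.71 and DNAJC12 had 0.69, while DNAJC5, a J protein of synaptic vesicles, had -0.27 and DNAJA1, a main partner of HSPA8, had -0.25.

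HSPB1, the small heat shock protein that holds unfolded proteins and binds actin filaments, was slightly higher. It measured 993, 980.4 and 979 FPKM with PBS and 1022, 1077 and 1056 FPKM with PP. The groups did not overlap, and HSPB1 moved from rank 12 to rank 4 of all genes. The log2 fold change was 0.10 (SE 0.03, 95% confidence interval 0.03 to 0.16, adjusted p = 0.0133 by limma), an increase of 6.87%. The call was lost without PBS library 2 (adjusted p = 0.0547 by limma) or PP library 2 (adjusted p = 0.0525 by limma), and under 3 other settings. Of 9 other small heat shock protein genes, 2 were tested, and HSPB11, which acts in cilia, was lower at -0.41.

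The cytosolic chaperonin TRiC, which folds actin and tubulin, and its partner prefoldin had 15 genes tested, of which 6 were higher and 4 lower, with a median log2 fold change of 0.01. Those shares, 40% higher and 26.7% lower, compare with 38.1% and 34.4% of all genes tested. CCT6B, the testis form of a TRiC subunit, had 0.74 (1.31 with a pseudocount of 0.1 and 1.42 by limma-voom on the recovered counts) and PFDN2 had 0.37, while PFDN5 had -0.52 and PFDN6 had -0.40. CCT6B had a mean of 0.685 FPKM with PBS and 1.80 FPKM with PP, so it passed the expression filter only through its PP libraries. It is among the 6 counted as higher, and its call is a description.

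Other genes known as HSF1 targets moved both ways. Of 16, 15 were tested, 5 were higher (33.3%) and 7 were lower (46.7%), against 38.1% and 34.4% of all genes tested. The median log2 fold change was -0.09. The 5 include HSPA6, which passed the expression filter only through its PP libraries. Beside HSPA6, the largest increase was in HSPD1, the mitochondrial HSP60 gene, at 0.55. The largest falls were in UBB, a polyubiquitin gene, from 777 ± 6.08 to 379 ± 13.7 FPKM (log2 fold change -1.03, adjusted p = 1.61e-09 by limma), and HSPE1, the mitochondrial HSP10 gene, at -0.59. Of the 150-base stretches of UBB, 23.6% also occurred in another gene. HSPE1 had from 298 to 517 counts per library, and 10.5% of its 150-base stretches also occurred in HSPE1-MOB4. SERPINH1, a collagen chaperone, fell from 70.3 ± 2.18 to 49.5 ± 3.16 FPKM and was named after its values had been seen.

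Chaperones of the same families in other compartments were higher in 7 of 8 genes and lower in 1, with a median log2 fold change of 0.67. Those shares, 87.5% higher and 12.5% lower, compare with 38.1% and 34.4% of all genes tested. In the endoplasmic reticulum, HSPA5, its HSP70 gene, rose from 114 ± 2.65 to 366 ± 2.38 FPKM (log2 fold change 1.68, adjusted p = 8.12e-11 by limma). HYOU1, an HSP110 relative, had 1.30, HSPA13 had 0.78 and HSP90B1, the HSP90 gene, had 0.37. In mitochondria, HSPA9, the HSP70 gene, had 0.80, TRAP1, the HSP90 gene, had 0.26 and HSPD1 had 0.55, while its partner HSPE1 was the gene that fell. The sum of HSPA5, HSP90B1 and HYOU1, which leaves out HSPA13, was 519 ± 13.6 FPKM with PBS and 973 ± 5.41 FPKM with PP, 87.4% higher. That of HSP90AA1, HSP90AB1 and HSPA8 fell by 27.0%. Every gene of the first sum rose and every gene of the second fell, so both directions follow from the genes chosen.

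**Figure D3:**
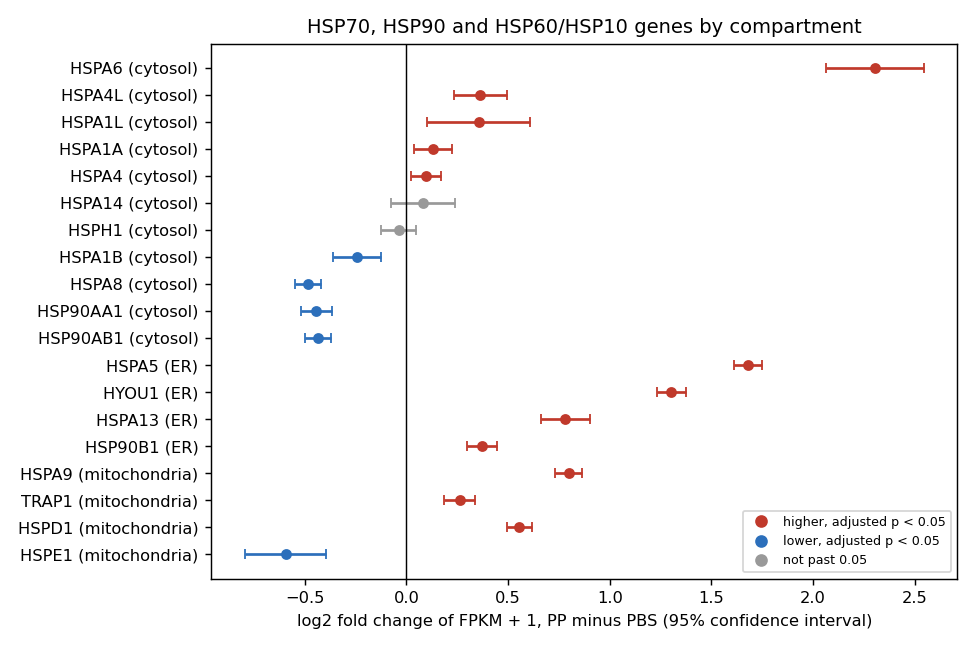
Log2 fold change of FPKM + 1 (PP minus PBS) with its 95% confidence interval from limma for the tested HSP70, HSP110 and HSP90 genes and the HSP60 and HSP10 genes, labelled by compartment (ER, endoplasmic reticulum). The points of HSPA8, HSP90AA1, HSP90AB1, HSPA1B and HSPH1 in the cytosol and of HSPE1 in mitochondria lay below 0. Those of all other genes shown, cytosolic ones and all ER genes among them, lay above 0, with HSPA6 the highest at 2.30.

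Ratios within a library do not depend on the scaling between libraries. The log2 ratio of HSP90AA1 to HSP90AB1 was 0.01, -0.01 and -0.03 with PBS and -0.04, -0.02 and 0.01 with PP. The difference was -0.01 (95% confidence interval -0.06 to 0.04, exact permutation p = 0.8, two-sided), so the ratio of the inducible to the constitutive gene did not differ beyond the spread of the libraries. The ratio of HSPA1A plus HSPA1B to HSPA8 was 0.131, 0.132 and 0.135 with PBS and 0.174, 0.171 and 0.155 with PP, a difference of 0.33 on the log2 scale (95% confidence interval 0.18 to 0.48). In this pair the inducible genes gained on the constitutive one although both fell. The log2 ratio of HSPA1B to HSPA1A was lower with PP by a difference of -0.38 (95% confidence interval -0.58 to -0.18), and it carries the uncertainty of the shared reads. The ratio of HSPA8 to HSPA5 fell from 7.53, 7.70 and 7.29 with PBS to 1.63, 1.71 and 1.65 with PP, a difference of -2.17 on the log2 scale (95% confidence interval -2.26 to -2.09). The exact permutation p was 0.1 in each of these last 3 ratios, the smallest that 3 against 3 libraries allow, and 4 ratios were compared, so none can pass 0.05.

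**Figure D4:**
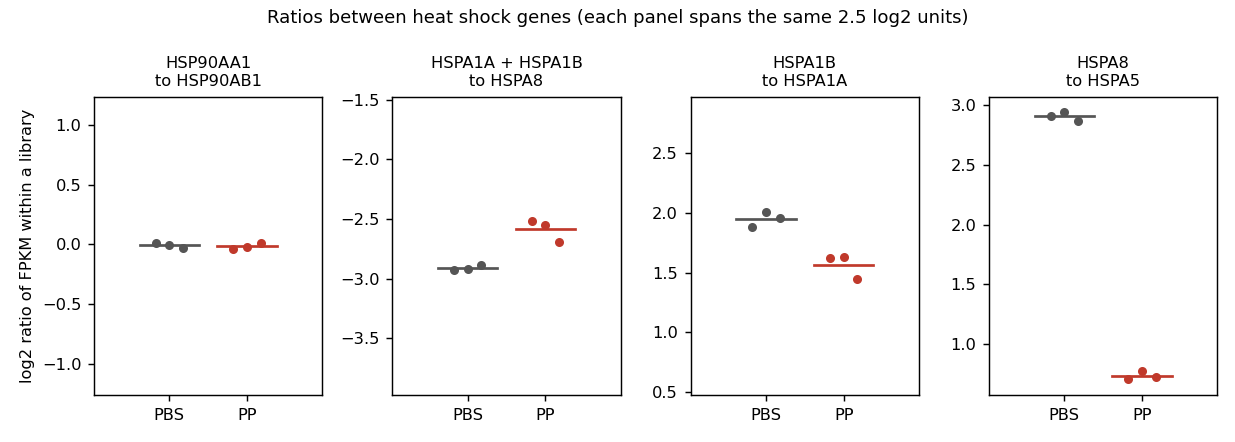
Log2 ratio of FPKM within each library for 4 pairs, with grey points for PBS and red points for PP, 3 libraries each, and a bar at each group mean. The PBS and PP points overlapped for HSP90AA1 to HSP90AB1 and were apart in the other panels, with the widest gap for HSPA8 to HSPA5.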

How the data were processed

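Poly(A)-selected RNA of 6 NCI-H660 libraries, 3 per treatment, was sequenced with a stranded kit as paired 150-base reads. The authors deposited FPKM values of 17177 genes by symbol, and the depth behind them was recovered here as whole counts, because the values of every gene were whole multiples of a step within 0.01 of a count. The sources differ on how the FPKM were made. The study's methods name hg19, Bowtie, RSEM, Cufflinks and HTSeq, whereas the submitters' processing notes name fastp, HISAT2, HTSeq and GRCh38. The methods also give 2 duplicates per group, whereas the study's figure legends give 3 independent samples and the table holds 3 libraries per treatment.

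The 11726 genes whose mean FPKM reached 1 were tested on log2(FPKM + 1), PP minus PBS, by limma 3.58.1 (R 4.3.3). Variances were moderated along an intensity trend and the Benjamini-Hochberg adjustment covered all these genes, and fold changes on this scale understate those of low genes. The script was tested on simulated data. Ratios and sums were compared by exact permutation tests, two-sided, and the confidence intervals of ratios came from the pooled spread of the 3 libraries of each group. Named genes were the 10 genes, the 2 highest and 2 lowest past the threshold in each other list, every gene of the other compartments and the markers, except where the text says otherwise. Some genes of these lists are not reported here. The genes and lists were chosen with earlier results of these data known. Alternatives were a pseudocount of 0.1, no filter, a mean FPKM of at least 5, median-ratio size factors, no intensity trend, a replicate block, limma-voom on the recovered counts, HSPA1A and HSPA1B summed, a pseudocount of 1 in the ratios, and leaving out each library.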

Additional observations from a re-analysis of the deposited data

How the results depend on the processing

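Of the single-gene log2 fold changes under the alternatives, 605 kept direction and call, 28 lost the call and 1 was reversed, HSPA1A at -0.16 when summed with HSPA1B. That sum is mostly HSPA1B. The alternatives for genes other than the 10, and for the summed FPKM, were added after seeing the data. Leaving out each library gave 2 to 4 of the 10 genes higher (2 without PBS library 2 or PP library 2, which lost HSPA1A and HSPB1) and 1 to 3 of the HSF1 relatives and binding proteins lower. With no filter, 1 HSF1 relative or binding protein was lower (also 1 with no intensity trend), 1 other HSP70 gene was lower and 1 other small heat shock protein was higher. With a mean FPKM of at least 5, fewer genes were tested, and 1 other HSP70 gene and 2 other HSF1 targets were higher. HSPB1 also lost its call with no filter (adjusted p = 0.0889 by limma), median-ratio size factors (log2 fold change 0.07, adjusted p = 0.0541 by limma) and no intensity trend (adjusted p = 0.0658 by limma). The cause was not tested. Same-numbered libraries did not deviate together (r = -0.21, -0.01 and -0.13), so the values showed no pairing by number. Such correlations cannot exclude that same-numbered libraries were prepared together. The replicate block gave 4 of the 10 genes higher and 4 lower, as without it, and HSPA4 lost its call (adjusted p = 0.0607 by limma). The sum of HSP90AA1, HSP90AB1 and HSPA8 changed by -28.1% with median-ratio size factors and by -27.5% to -26.0% without each library. With 3 libraries per treatment, ratios and sums cannot pass 0.05.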

Other observations

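The exact heat shock element found in a promoter window of each of HSPA8, HSP90AA1 and HSP90AB1 was also held by windows of other genes. Of 40 tested genes with such a window, 10 were higher (25%) and 17 were lower (42.5%), with a median log2 fold change of -0.07. Without HSPA8, HSP90AA1 and HSP90AB1, 37 genes were left, of which 10 were higher and 14 were lower, with a median of -0.01. Both counts of 10 include HSPA6, which passed the expression filter only through its PP libraries. Of the 9557 tested genes with any promoter window in the table, 38.7% were higher and 33.8% were lower, with a median of 0.03. No test was made of these shares, which are given as a description.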
